A study of Mus musculus with 4 samples.

Results

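The genes described here are 37 protein-coding genes of microbial sensing in the mouse: the Toll-like receptors (TLRs), the NOD and NLRP3 receptors, and the adaptors, TRAF ubiquitin ligases and kinases that carry their signal. They were chosen by name, from a list, and not by a cutoff on any measured value, though earlier results of these data were known. Open chromatin near them was read from DNase-seq, in which the nuclease DNase I cuts accessible DNA, in lymphoid tissue inducer (LTi) cells of Peyer's patches. LTi cells are innate lymphoid cells that start the formation of lymphoid organs and respond to cytokines from neighbouring cells. The cells were sorted as lineage-negative, CD127+ and CCR6+. The 2 groups of C57BL/6 mice had 2 libraries each. Tcf7-KO mice carried floxed Tcf7 alleles and a Cre recombinase, so that deletion is limited to cells in which Cre is or was active. Control mice were Tcf7+/+, and the sources used here do not say whether they carried Cre. Each library came from 300 sorted cells, and neither the animals' ages nor any pooling of animals is stated.

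The table analysed here lists 16584 accessible regions, called islands, on build mm10. Each island has 2 read counts, 1 for a peak side and 1 for a control side, and no header ties either side to a genotype or a library. Tcf7-KO and control mice are therefore not compared, and there are no replicate values. A fold below is the peak-side reads over the control-side reads after these are multiplied by 0.345, the factor in the authors' deposited folds, with an exact (Clopper-Pearson) 95% counting interval in brackets. The intervals cover counting error only, and not differences between libraries. They treat reads as independent, but without molecular identifiers 2 reads may stem from 1 molecule, so the intervals may be too narrow. Over all islands the sums were 425134 peak-side and 645087 control-side reads, and the median fold was 2.01. An island is called where the authors' deposited table gives it an FDR under 0.05. The lowest peak-side count in the table was 8 reads, so the lack of an island does not show that a gene was closed.

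Toll-like receptors recognise microbial lipids, proteins and nucleic acids and recruit Myd88 or Ticam1 through shared Toll/interleukin-1 receptor (TIR) domains. Irak kinases, Traf6 and the Map3k7 complex then activate NF-kB and MAP kinases, while Nod1 and Nod2 reach the same complex through Ripk2. The interleukin-1 and interleukin-18 receptors use the same Myd88 and Irak proteins, and LTi cells are known to respond to interleukin-1.

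Most of the signalling genes downstream of the receptors had an accessible island, and most Toll-like receptor genes did not. An island was assigned to the gene whose nearest end lay within 50 kb. By that rule 25 of the 37 genes (67.6%) had at least 1 island, 48 islands in all, beside 49.2% of 21887 protein-coding genes. With the distance limited to 1 kb the number was 23 genes, beside 40.4% of all, and with called islands alone it was 20, beside 42.1%. Among the adaptors, TRAF ligases, kinases and kinase partners, 20 of 21 genes (95.2%) had one, and 15 had a called one. Among the Toll-like receptors, 3 of 12 (25%) had one, and among the cytosolic receptors 2 of 3. All 5 of these receptor genes had a called one, though for Tlr9 its interval (0.823 to 5.02) included 1. The protease gene Casp1 had none. No test was made on these counts.

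**Figure D1:**
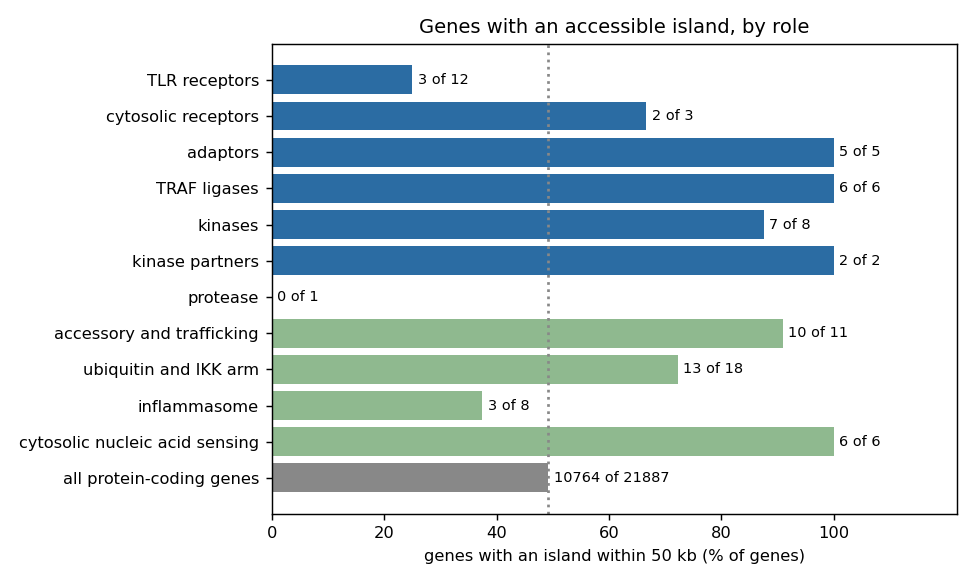
Share of genes that had an island assigned, at most 50 kb away (x axis, percent of genes), by role (blue), in other genes of the same pathways (green) and in all protein-coding genes (grey, dotted line at 49.2%). Labels give counts of genes. The Toll-like receptors, at 3 of 12, lie below the dotted line, and the adaptors, TRAF ligases, kinases and kinase partners lie above it.

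The start windows of the genes were read in the same way. A start window here is 300 bases of RefSeq sequence, 250 before and 50 after a listed transcription start, on GRCm38.p6, the assembly that mm10 names. Such windows were listed for 32 of the 37 genes, and an island overlapped at least 1 of them in 20 genes, beside 46.8% of 17492 protein-coding genes with a window. The 20 genes were 17 of the 18 adaptor, TRAF, kinase and kinase partner genes with a window, together with Tlr6, Nod1 and Nod2. With islands called in the authors' deposited table alone, the 20 genes became 12, beside 38.3% of all genes with a window. The signalling genes among them were then 9 of 18, without Myd88, Tirap, Pycard, Traf3, Traf4, Irak2, Irak3 and Ripk1, while Tlr6, Nod1 and Nod2 stayed. No window was listed for Tlr4, Tlr7, Ticam2, Ripk2 and Tab1. The windows below are those of the 2 genes with most peak-side reads over a start window in each of 4 classes (receptors, adaptors, TRAF ligases, kinases), and they are printed to show how differently the covered starts are built. Capitals mark every CG dinucleotide (CpG), read 5′ to 3′ on the gene's strand.
Traf2, chr2:25546891-25547190, minus strand: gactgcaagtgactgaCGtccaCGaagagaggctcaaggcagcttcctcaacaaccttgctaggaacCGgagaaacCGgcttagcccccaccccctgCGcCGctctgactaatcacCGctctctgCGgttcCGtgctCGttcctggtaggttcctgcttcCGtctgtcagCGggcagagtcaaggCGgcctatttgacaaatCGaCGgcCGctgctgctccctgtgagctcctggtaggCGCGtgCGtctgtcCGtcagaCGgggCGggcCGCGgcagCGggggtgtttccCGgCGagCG
Traf5, chr1:192092550-192092849, minus strand: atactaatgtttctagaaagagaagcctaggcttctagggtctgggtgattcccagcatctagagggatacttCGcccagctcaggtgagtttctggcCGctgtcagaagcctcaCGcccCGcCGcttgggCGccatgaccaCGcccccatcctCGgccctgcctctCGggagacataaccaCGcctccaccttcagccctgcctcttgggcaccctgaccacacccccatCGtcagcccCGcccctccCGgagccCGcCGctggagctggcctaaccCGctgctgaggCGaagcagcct
Ticam1, chr17:56276718-56277017, minus strand: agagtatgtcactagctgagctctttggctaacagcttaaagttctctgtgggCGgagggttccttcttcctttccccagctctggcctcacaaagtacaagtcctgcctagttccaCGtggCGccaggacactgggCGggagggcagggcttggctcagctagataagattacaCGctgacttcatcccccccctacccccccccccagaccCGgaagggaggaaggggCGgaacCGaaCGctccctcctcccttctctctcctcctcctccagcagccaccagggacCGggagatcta
Tirap, chr9:35199916-35200215, minus strand: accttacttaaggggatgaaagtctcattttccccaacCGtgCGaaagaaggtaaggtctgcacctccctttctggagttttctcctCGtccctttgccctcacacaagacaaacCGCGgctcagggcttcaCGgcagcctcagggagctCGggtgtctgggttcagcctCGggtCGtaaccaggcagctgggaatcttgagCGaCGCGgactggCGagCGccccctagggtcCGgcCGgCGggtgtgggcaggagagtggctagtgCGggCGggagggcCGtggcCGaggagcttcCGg
Map3k7, chr4:31963857-31964156, plus strand: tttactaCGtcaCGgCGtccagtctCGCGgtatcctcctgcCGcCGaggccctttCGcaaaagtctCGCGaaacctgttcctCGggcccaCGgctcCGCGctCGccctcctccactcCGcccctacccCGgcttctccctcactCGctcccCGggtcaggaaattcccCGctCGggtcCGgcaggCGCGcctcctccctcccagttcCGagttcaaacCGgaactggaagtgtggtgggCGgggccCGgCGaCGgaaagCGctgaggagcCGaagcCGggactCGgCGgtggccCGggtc
Irak4, chr15:94543410-94543709, plus strand: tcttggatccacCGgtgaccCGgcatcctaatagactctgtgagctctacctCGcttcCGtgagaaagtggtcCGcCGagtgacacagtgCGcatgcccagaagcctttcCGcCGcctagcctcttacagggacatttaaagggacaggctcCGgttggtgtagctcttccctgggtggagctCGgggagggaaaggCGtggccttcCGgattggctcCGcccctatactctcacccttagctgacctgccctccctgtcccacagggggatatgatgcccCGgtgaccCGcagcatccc
Nod1, chr6:54972563-54972862, minus strand: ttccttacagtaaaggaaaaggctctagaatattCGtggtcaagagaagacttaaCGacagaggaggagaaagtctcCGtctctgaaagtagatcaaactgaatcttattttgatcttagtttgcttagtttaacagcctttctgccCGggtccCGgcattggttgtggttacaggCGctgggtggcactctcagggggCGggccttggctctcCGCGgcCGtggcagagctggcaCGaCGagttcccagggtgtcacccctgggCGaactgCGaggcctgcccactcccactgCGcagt
Tlr6, chr5:64959117-64959416, minus strand: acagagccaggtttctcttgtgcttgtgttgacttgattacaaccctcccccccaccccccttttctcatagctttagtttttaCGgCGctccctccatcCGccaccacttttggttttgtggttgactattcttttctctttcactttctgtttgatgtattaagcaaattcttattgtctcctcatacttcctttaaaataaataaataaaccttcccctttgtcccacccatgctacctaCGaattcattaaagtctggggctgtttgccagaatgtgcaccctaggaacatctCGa

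Set beside them are the windows of Tlr9 and Casp1, which no island overlapped. These 2 were chosen after their values were seen, as examples of starts with few CpG.
Tlr9, chr9:106222348-106222647, plus strand: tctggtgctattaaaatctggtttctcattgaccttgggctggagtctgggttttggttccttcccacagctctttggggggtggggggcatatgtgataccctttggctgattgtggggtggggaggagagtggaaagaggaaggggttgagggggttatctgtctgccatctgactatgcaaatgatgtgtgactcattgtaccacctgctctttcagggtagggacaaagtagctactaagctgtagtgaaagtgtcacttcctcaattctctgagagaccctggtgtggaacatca
Casp1, chr9:5298267-5298566, plus strand: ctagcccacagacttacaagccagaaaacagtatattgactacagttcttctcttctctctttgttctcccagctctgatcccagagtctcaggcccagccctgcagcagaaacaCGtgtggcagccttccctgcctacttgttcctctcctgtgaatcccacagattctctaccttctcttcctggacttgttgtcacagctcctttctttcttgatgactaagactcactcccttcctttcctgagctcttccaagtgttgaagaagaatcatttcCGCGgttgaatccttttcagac

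The windows that an island overlapped held a median of 19 CpG (3 to 59, 25 windows), and the windows without one a median of 5 (0 to 11, 16 windows). These ranges overlap: Pycard, Traf1 and Tlr6 had an island over windows of 3, 4 and 5 CpG, and Tlr2, Tlr3 and Ripk3 had none over windows of 11, 10 and 10. The observed number of CpG over the number expected from the C and G content, here the CpG ratio, was 0.6 or more in 16 of the 41 windows of these genes. An island overlapped all 16, beside 78.0% of the 10137 such windows of protein-coding genes. Among the 25 windows with a lower ratio, an island overlapped 9, beside 15.8% of 11126. Those 9 belonged to Tlr6, Nod2, Ticam1, Pycard, Traf1, Traf5, Irak3 and Irak4. None of the 12 Toll-like receptor windows reached 0.6 (median 0.341, highest 0.576), while 15 of 23 adaptor, TRAF, kinase and kinase partner windows did (median 0.747). The part of CpG content in the division between receptors and signalling genes was not tested. Gene length also differed, with a median of 16.3 kb for the Toll-like receptors, 24.7 kb for the 21 signalling genes and 17.2 kb for all protein-coding genes, and its part was not tested.

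**Figure D2:**
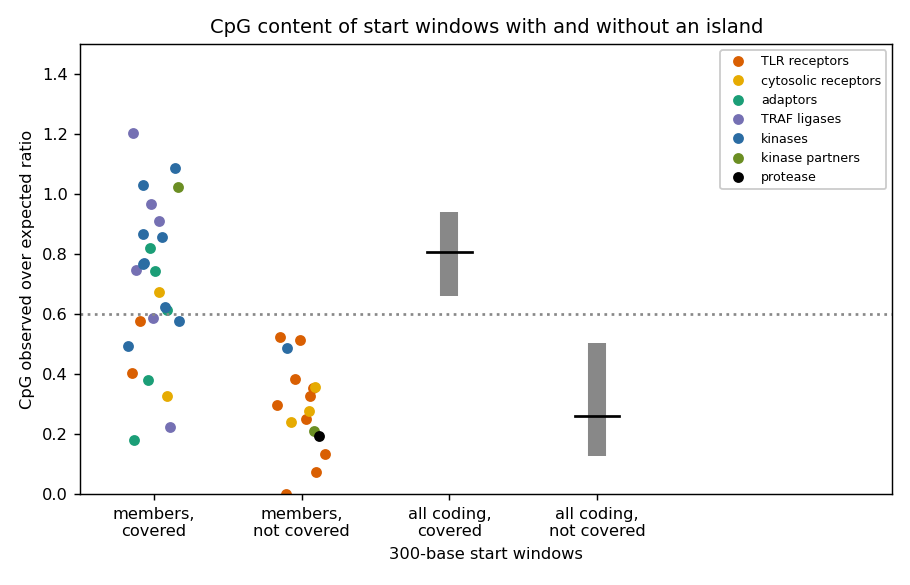
CpG ratio (observed over expected, y axis) of 300-base start windows. Each point is a window of one of the genes described here, coloured by role, and grey bars with black lines give the interquartile range and median over all protein-coding windows. All 16 member windows at or above 0.6 (dotted line) lie in the covered column.

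Motif letters were searched in these windows on both strands. The TCF/LEF core TCAAAG, which the protein of Tcf7 recognises, was found in the windows of 3 genes, Nlrp3, Ripk3 and Traf4. Across windows it was in 4 of 41 (9.76%), beside 14.4% of all 21263 protein-coding windows. The NF-kB consensus was found in the windows of Tlr2, Tlr3, Nlrp3, Map3k7 and Traf3, which makes 5 of 41 windows (12.2%), beside 4.81% of all windows. Of these 5, the windows of Map3k7 and Traf3 were overlapped by an island. In the Map3k7 window printed above, the match starts 92 bases before the start. The RUNX core TGTGGT was in 10 windows (24.4%, beside 15.0%), from 9 genes. An island overlapped the windows with a match in Nod1, Tlr6, Traf1, Traf5, Traf6, Irak1 and Map3k7, and not in Tlr12 and Ripk3. The GC box GGGCGG was in 25 windows (61.0%, beside 46.2%). The ETS letters CCGGAAG were in 7 (17.1%, beside 11.6%), the ROR element AGGTCA in 7 (17.1%, beside 14.7%) and the AP-1 letters TGANTCA in 1, that of Tlr9 (2.44%, beside 6.99%). An island overlapped 25 of the 41 windows. Over the 9669 protein-coding windows that an island overlapped, the shares were 10.9% (TCF/LEF), 5.53% (NF-kB) and 11.3% (RUNX). They were 70.3% for the GC box, 21.0% for ETS, 10.9% for ROR and 3.71% for AP-1. Windows of 1 gene can overlap, as those of Irak1 and Tirap do, so windows are not independent, and a match in the letters is not a bound site.

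Among the receptors, the 3 Toll-like genes with an island were Tlr5, Tlr6 and Tlr9. Tlr5, the receptor for bacterial flagellin, had 3 islands and none over its start window. The first lay within the gene (chromosome 1, 182959201 to 182960800), with 21 peak-side and 31 control-side reads. Its fold was 1.96 (1.07 to 3.53), and below the counts of an island are given in this order. The other 2 lay beyond the gene's far end, overlapped no protein-coding gene, and had 15 and 23 reads (fold 1.89, 0.918 to 3.78) and 10 and 17 reads (fold 1.71, 0.698 to 3.95). All 3 were called in the authors' deposited table, and their intervals overlapped almost fully.

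Tlr6 forms a receptor for bacterial lipopeptides together with Tlr2. Its island at chromosome 5, 64959001 to 64961600, lay over both listed Tlr6 starts, inside the gene, and had 12 and 20 reads (fold 1.74, 0.776 to 3.74). A further island, at 64969601 to 64972200, lay over the outer end of Tlr6 and had 19 and 23 reads (fold 2.4, 1.23 to 4.6). That one also overlapped the start window of the neighbouring Fam114a1, so its reads cannot be given to either gene alone.

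Tlr9, an endosomal receptor for unmethylated CpG DNA, had a small island near the far end of the gene (chromosome 9, 106225401 to 106226600) and none over its start. It held 10 and 14 reads, with a fold of 2.07 (0.823 to 5.02).

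The other 9 Toll-like genes had no island. Tlr2 and Tlr1, which pair to bind lipopeptides, lay 197 kb and 25.4 kb from the nearest island, and for Tlr1 that island was the one over the Tlr6 starts. Tlr4, the receptor for lipopolysaccharide, was the farthest from one, at 1222 kb. The nucleic acid receptors Tlr3, Tlr7 and Tlr8 lay 61.9 kb, 95.2 kb and 32.9 kb from the nearest island, and Tlr13, which detects bacterial ribosomal RNA in mice, lay 25.3 kb away. Tlr11, a receptor for profilin of parasites in mice, lay 442 kb away. Tlr12, which works with Tlr11, lay 4.85 kb from an island of 38 and 59 reads that was assigned to Zscan20. Of the 5 receptors at the cell surface 2 had an island, and of the 7 endosomal receptors 1 did.

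Both NOD genes had an island over a start. Nod1, a sensor of peptidoglycan fragments, had 12 and 14 reads there (chromosome 6, 54972401 to 54974800; fold 2.49, 1.05 to 5.79). A further island 5.14 kb beyond the far end of Nod1 had 13 and 12 reads (fold 3.14, 1.32 to 7.53). Nod2, which senses muramyl dipeptide, had the island with the fewest peak-side reads of all 48, 8 and 7 reads over its start (chromosome 8, 88647001 to 88647400; fold 3.31, 1.05 to 10.7). It lay at the table's lowest peak-side count. A wider one within the gene had 14 and 25 reads (fold 1.62, 0.781 to 3.25). Nlrp3, the sensor of an inflammasome, had none, and the nearest lay 34.6 kb from the gene.

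All 5 adaptor genes had an island. Myd88, the adaptor of nearly all Toll-like receptors and of the interleukin-1 receptor family, had 2 islands, 1 at each end of a short gene. The one over its start (chromosome 9, 119339001 to 119340200) had 10 and 18 reads (fold 1.61, 0.665 to 3.68) and missed the call in the authors' deposited table. The other, just beyond its far end (119334401 to 119335800), had 16 and 10 reads, and its fold of 4.64 (1.98 to 11.4) was the highest among the 48 islands. The authors' deposited table gives it an FDR of 1.92e-06. These intervals overlap.

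Tirap, which bridges Myd88 to receptors at the cell membrane, had 23 and 52 reads over its start (chromosome 9, 35198801 to 35200800; fold 1.28, 0.749 to 2.13). Pycard, the adaptor that joins Nlrp3 to caspase-1, had 22 and 45 reads in an island over most of that short gene (chromosome 7, 127991801 to 127994400; fold 1.42, 0.811 to 2.41). Neither was called in the authors' deposited table, and both intervals reach below 1.

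Ticam1 encodes TRIF, the adaptor of Tlr3 and of endosomal Tlr4 signalling. It had 28 and 55 reads over its start (chromosome 17, 56276401 to 56278600; fold 1.48, 0.902 to 2.37) and 15 and 14 reads over its far end (56268601 to 56271000; fold 3.11, 1.4 to 6.95). Ticam2 encodes TRAM, which links Ticam1 to Tlr4. Its 1 island, with 19 and 20 reads (fold 2.76, 1.39 to 5.44), lay 3.63 kb outside the gene on chromosome 18 (46552201 to 46554600).

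Each of the 6 TRAF genes had an island over its start, with between 19 and 36 peak-side reads. TRAF proteins are ubiquitin ligases or scaffolds that join receptors to kinases. Traf2, which serves TNF receptors, had 36 and 48 reads in an island of 800 bp (chromosome 2, 25546401 to 25547200; fold 2.18, 1.37 to 3.42), whose start window is printed above. Traf5, a relative of Traf2, had 35 and 56 reads (chromosome 1, 192090401 to 192093400; fold 1.81, 1.15 to 2.81). Traf6, the ligase that acts directly after the Irak kinases, had 22 and 35 reads (chromosome 2, 101677201 to 101680000; fold 1.82, 1.02 to 3.20).

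Traf1 and Traf3 differed in how many islands they had. Traf1, a TRAF without a RING domain that is itself induced by NF-kB, had 4 islands that the authors' deposited table calls, holding 69 and 85 reads (pooled fold 2.35, 1.69 to 3.27). The one over its start had 29 and 40 reads (fold 2.10, 1.26 to 3.48), those within the gene 11 and 13 reads (2.45, 0.996 to 5.94) and 13 and 20 reads (1.89, 0.862 to 3.98), and the one 2.15 kb past the far end 16 and 12 reads (chromosome 2, 34937601 to 34939600; 3.87, 1.72 to 8.96). Traf3, a brake on the alternative NF-kB pathway and a partner of Ticam1, is the longest of the 37 genes. It had 1 island, over its start (chromosome 12, 111164601 to 111167000), with 29 and 67 reads (fold 1.26, 0.783 to 1.97), which was not called in the authors' deposited table.

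Traf4 had 19 and 39 reads over its start (fold 1.41, 0.771 to 2.50) and 9 and 8 reads near its far end (fold 3.26, 1.12 to 9.72). The remaining islands of Traf2 were 1 within the gene, with 12 and 27 reads (fold 1.29, 0.595 to 2.63), and 1 upstream of the start, with 15 and 15 reads (fold 2.90, 1.32 to 6.37).

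Of the 8 kinase genes, 7 had an island, and Ripk3 did not. Irak4, the first kinase recruited to Myd88, had 36 and 61 reads over its start and that of Pus7l (chromosome 15, 94543201 to 94545000; fold 1.71, 1.10 to 2.63). Inside the gene it had a 200 bp island with 9 and 9 reads (fold 2.90, 1.02 to 8.25) and another with 10 and 8 reads (fold 3.63, 1.29 to 10.6). Irak1, a substrate of Irak4 on the X chromosome, had 10 and 13 reads over its start (74023001 to 74024400; fold 2.23, 0.876 to 5.51). Irak3, which lacks strong kinase activity and restrains the pathway, had 25 and 54 reads over its start (chromosome 10, 120200601 to 120205000; fold 1.34, 0.801 to 2.20), and this island was not called in the authors' deposited table.

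Irak2, which sustains the signal after Irak1, had the most islands, 7, all over its start or within the gene on chromosome 6. Together they held 105 and 230 reads, with a pooled fold of 1.32 (1.04 to 1.68). The island with most peak-side reads (113653001 to 113656600) had 30 and 42 reads (fold 2.07, 1.25 to 3.39). The next in line (113660001 to 113663600) had 13 and 59 reads (fold 0.639, 0.322 to 1.18). These 2 neighbours do not overlap in their intervals.

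The start of Irak2 (113638401 to 113639000) had 9 and 27 reads (fold 0.967, 0.400 to 2.12). Both islands of the 48 with a fold under 1 thus belonged to Irak2, beside 1.67% of all islands. The other 4 had between 10 and 16 peak-side reads and folds between 1.24 and 2.32, and the authors' deposited table calls 1 of them, of 16 and 20 reads (fold 2.32, 1.12 to 4.71).

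Among the RIP kinases, Ripk2 had the most reads. Ripk2 relays Nod1 and Nod2 signals. Its gene-end island (chromosome 4, 16162001 to 16164400) had 53 and 94 reads, the most peak-side reads of the 48 islands, and a fold of 1.64 (1.15 to 2.31). A second one 5.52 kb outside the gene (16169201 to 16170600) had 14 and 9 reads (fold 4.51, 1.82 to 11.8). Ripk1, which acts after TNF receptors and Ticam1, had 18 and 46 reads over its start and that of Serpinb6a (chromosome 13, 34001401 to 34003000; fold 1.13, 0.619 to 2.00), and it was not called in the authors' deposited table. Ripk3, which executes necroptosis, had none, and the nearest island lay 16.2 kb from the gene.

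Map3k7 encodes TAK1, the kinase on which the Toll-like, interleukin-1 and NOD branches meet. Its 1 island (chromosome 4, 31963401 to 31966600) lay over the start printed above, with 38 and 56 reads (fold 1.97, 1.27 to 3.02). Its partners Tab1 and Tab2, which bind and activate TAK1, had islands as well. Tab1 had 31 and 48 reads over a gene end (chromosome 15, 80132601 to 80136000; fold 1.87, 1.15 to 3.0). Tab2 had 26 and 54 reads over its outer start (chromosome 10, 7953801 to 7956800; fold 1.4, 0.839 to 2.27) and 13 and 14 reads near its far end (fold 2.69, 1.17 to 6.18). Casp1, the protease that the Nlrp3 inflammasome activates to cut pro-interleukin-1β, had none, and the nearest lay 921 kb away.

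**Figure D3:**
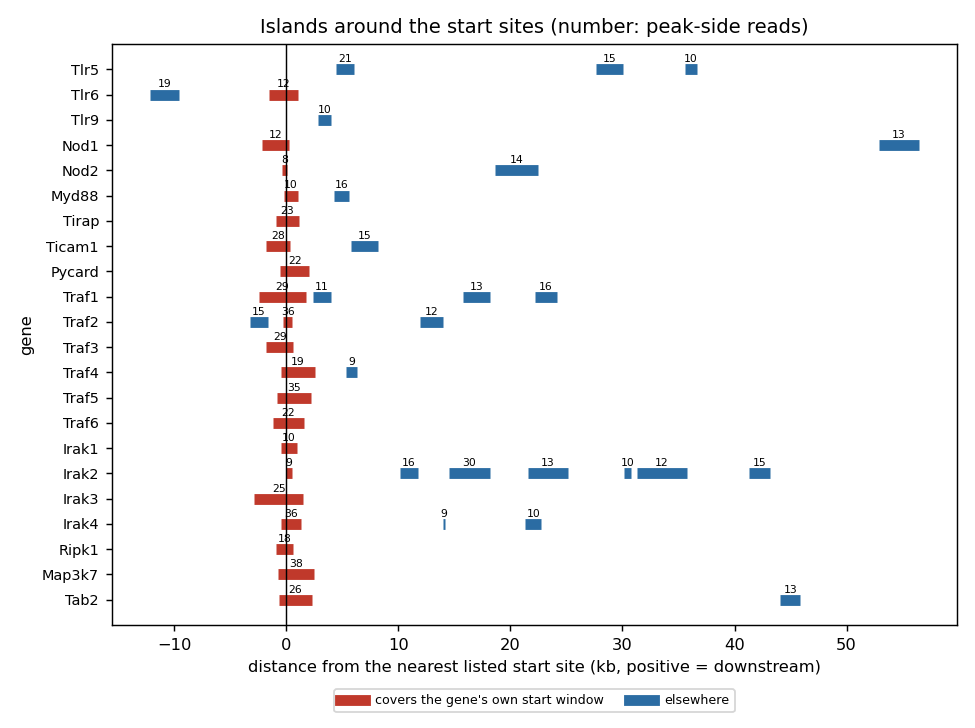
Islands of the genes with a listed start window, drawn to scale by distance from the nearest listed start (x axis, kb, positive downstream), with the peak-side reads above each. Red islands overlap the gene's own start window. Irak2 has the most islands, 7, and Tlr5 and Tlr9 have none over a start.

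Over the 48 islands the level of the folds was close to that of the whole table. The median fold was 1.89 (interquartile range 1.44 to 2.54), beside 2.01 (1.61 to 2.62) over the other 16536 islands. The pooled fold was 1.77 (1.63 to 1.92), beside 1.91 (1.90 to 1.92). The authors' deposited table called 35 of the 48 (72.9%), beside 82.3% of all islands. These levels rest on the scaling of the control side: scaled by the reads in all islands, the pooled fold was 0.926 (0.852 to 1.01), and 3 of the 48 islands would be called, beside 9.19% of all. The genes with an island but no called one were Tirap, Pycard, Traf3, Irak3 and Ripk1. The median island held 15 peak-side and 24 control-side reads, beside 18 and 27 over the other islands. The median width was 2100 bp, beside 1800 bp.

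**Figure D4:**
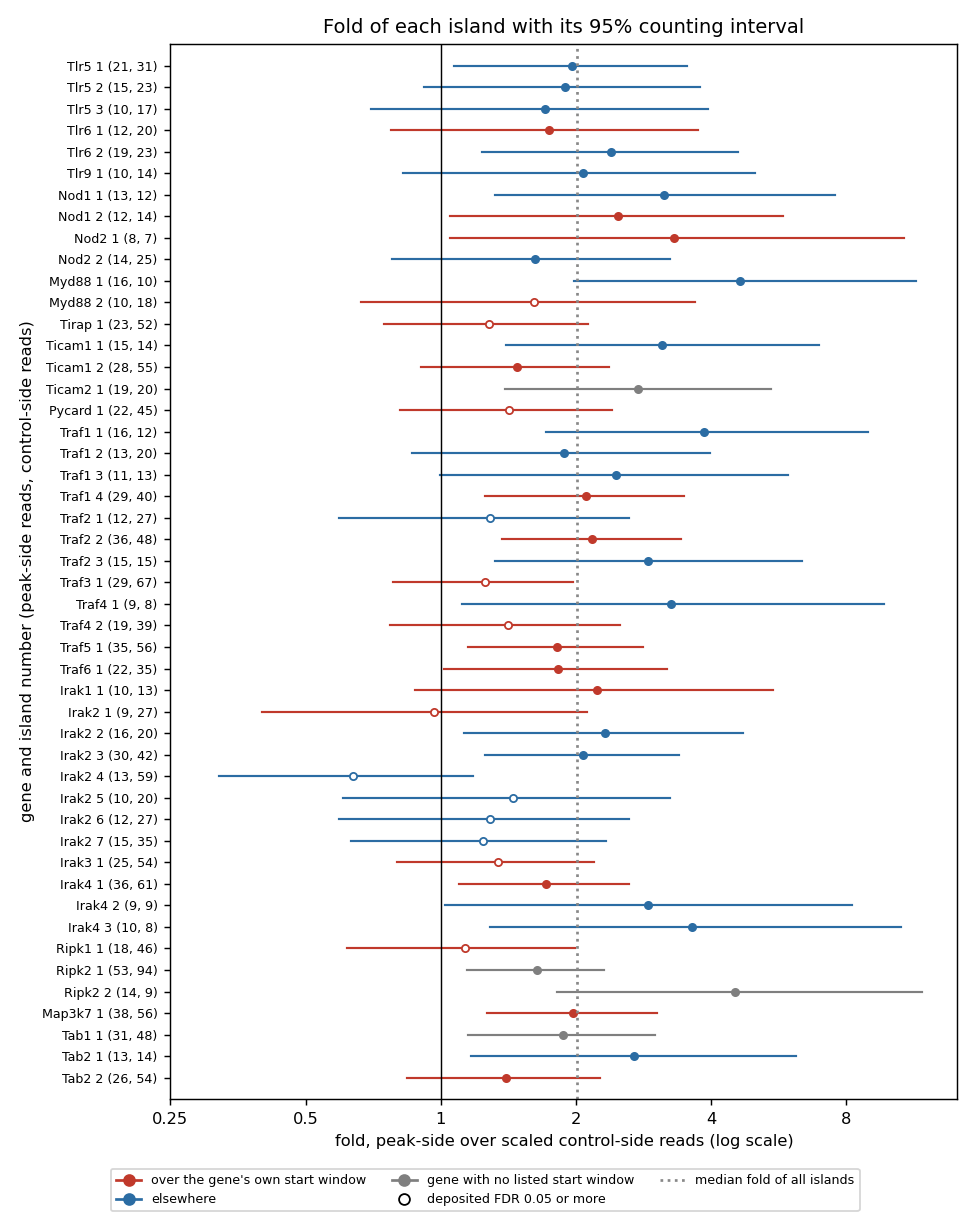
Fold of each of the 48 islands (x axis, log scale) with its 95% counting interval, by gene and island number along the chromosome, with peak-side and control-side reads in brackets. Colour gives the place, open points have an FDR of 0.05 or more in the authors' deposited table, and the dotted line is the median fold of all islands, 2.01. Both points left of 1 belong to Irak2.

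The islands over a start window had more reads and lower folds, by their medians, than the others. The 20 start islands had a median of 22.5 peak-side reads and a median fold of 1.66, and the authors' deposited table called 60.0% of them, beside 81.2% of all islands at the starts of protein-coding genes. The 24 elsewhere at genes with a window had a median of 13 reads and a median fold of 2.20. Over all islands these medians were 1.85 at the starts of protein-coding genes and 2.23 elsewhere, so this ordering was shared with the whole table. In 9 of the 11 genes with both kinds, the fold was lower over the start. The exceptions were Nod2 and Traf2. For Tlr6, counted among the 9, the other island lay over the start window of Fam114a1. No such count was made over all protein-coding genes, so whether it is particular to these genes was not tested. No island in the table had fewer than 8 peak-side reads, so regions with fewer are missing whatever their control side. The part of this limit in the folds of islands with few reads was not tested. In Myd88 the ratio of the start fold to the other fold was 0.347 (95% exact conditional interval 0.0993 to 1.19), in Ticam1 0.475 (0.184 to 1.23) and in Irak4 0.528 (0.227 to 1.23). In each of the 11 genes the interval of this ratio included 1, so no difference was detectable within a single gene at these read counts.

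Other genes of the same pathways were taken from 4 lists of 43 genes. Of these 43, 32 (74.4%) had an island, beside 49.2% of all protein-coding genes. Of 11 accessory and trafficking genes 10 had one, including Sigirr, an inhibitory receptor of the family (55 and 78 reads, pooled fold 2.05, 1.42 to 2.93), Lbp, which carries lipopolysaccharide (42 and 39 reads, 3.12, 1.97 to 4.96), and Tollip, an inhibitor of Irak1 (37 and 46 reads, 2.33, 1.47 to 3.68). Ly96, the partner of Tlr4 in binding lipopolysaccharide, had an island with 16 and 13 reads (fold 3.57, 1.61 to 8.07), and so did Unc93b1, which moves nucleic acid receptors to endosomes, with 25 and 42 reads (1.73, 1.01 to 2.90). Cd14, which hands lipopolysaccharide to Ly96 and Tlr4, had 11 and 24 reads (1.33, 0.588 to 2.82) and was not called in the authors' deposited table. Of the nucleic acid receptors among the Toll-like genes, Tlr9 had an island, and Tlr3, Tlr7, Tlr8 and Tlr13 had none. Cd36 had none.

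The ubiquitin and IKK arm had an island at 13 of 18 genes, and a called one at 9. Tnfaip3, which removes ubiquitin chains made by Traf6, led with 97 and 109 reads (pooled fold 2.58, 1.94 to 3.42), followed by the deubiquitinase gene Cyld (72 and 97 reads, 2.15, 1.56 to 2.95) and the ligase gene Birc2 (65 and 91 reads, 2.07, 1.48 to 2.88). All 6 genes of cytosolic nucleic acid sensing had a called island, led by Mavs (34 and 61 reads, 1.62, 1.03 to 2.50), Ddx58 (21 and 24 reads, 2.54, 1.34 to 4.76) and Cgas (17 and 28 reads, 1.76, 0.904 to 3.33).

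The inflammasome list was the sparsest, with an island at 3 of 8 genes, and all 3 had a called one. These were Nek7, a cofactor of Nlrp3 (65 and 67 reads, pooled fold 2.81, 1.97 to 4.02), Casp8 (12 and 13 reads, 2.68, 1.12 to 6.36) and the DNA sensor gene Aim2 (11 and 8 reads, 3.99, 1.46 to 11.4). Il1b, Il18, Nlrc4, Casp4 and Gsdmd had none, as was the case for Nlrp3 and Casp1.

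The sort, which was gated against lineage markers, was read through marker lists. Of 11 LTi genes 10 had an island, with 552 and 837 reads, and Ccr6, part of the gate, had none assigned. Myeloid cells are the main users of Toll-like receptors. Of 10 myeloid markers 2 had an island, Fcgr1 and Spi1, with 35 and 56 reads in all, and Csf1r, Itgam, Itgax, Lyz2, Adgre1, Cd68, Mpo and S100a8 had none. Of 7 B cell markers Pax5 and Cd79b had one (40 and 42 reads in all), and of 7 T cell markers Cd3d had one (17 and 17 reads). Of 7 epithelial and stromal markers 5 had one, with 133 and 173 reads, and Krt18 and Vil1 had none. Over all protein-coding genes the share with an island was 49.2%. A called island was found at 9 LTi, 1 myeloid, 2 B cell, 1 T cell and 5 epithelial and stromal genes, beside 42.1% of all. The pooled fold was 1.91 for the LTi list, 1.81 for myeloid, 2.76 for B cell, 2.90 for T cell and 2.23 for epithelial and stromal. Among the LTi genes with a listed start window, an island overlapped it in 8 of 9. In the other lists none of 4 epithelial and stromal, 7 myeloid, 4 B cell and 6 T cell genes with a window had one there. Over all protein-coding genes with a window the share was 46.8%. How far reads from cells of these other types enter the islands of the receptor genes was not tested.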

How the data were processed

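DNase-seq was run on 4 libraries (2 Tcf7-KO, 2 control) of 300 cells each, with a 5 minute digestion in 0.3 U of DNase I, per the labels' protocols. Bowtie2 2.4.2, SICER 2.0 and build mm10 are named in the submitters' processing notes. The authors deposited raw read counts per island for 2 sides, with a p-value, an FDR (q-value) and a fold ratio, per the file headers. Recalculation from the read counts gave all 16584 deposited folds and p-values with 1 factor, 0.345, and an upper Poisson tail. The tolerance of 1e-05 was relative for folds and absolute for p-values. The p-values below it were therefore checked only as being small. Depth per library is not given in the sources used here.

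Islands went to the nearest end of a protein-coding gene (RefSeq, GRCm38.p6) within 50 kb, measured from the island's edge, with ties going to the end nearest its centre. Start windows came from the RefSeq promoter table (any overlap of 1 base or more). On 764 overlapping pairs of windows on opposite strands, all 764 were reverse complements. Every gene of the list is accounted for. In other lists the 3 genes with most peak-side reads are named, and Cd14, Ly96 and Unc93b1 were added after their values were seen. The genes, lists and motifs were chosen with earlier results of these data known. The calculation of intervals and adjustment was run on simulated, independent Poisson reads. This checked the calculation only, since the simulation had no shared molecules, no difference between libraries and no lower limit on reads. Calls in the text use the deposited FDR. Python 3.11.15, pandas 2.3.3, numpy 2.4.6 and scipy 1.17.1 were used.

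The planned edgeR comparison of genotypes was not run, because the read columns are not tied to libraries. The Cre driver and the values of 1 marker gene are not reported here.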

Additional observations from a re-analysis of the deposited data

How the results depend on the processing

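No paired analysis was possible because the read columns carry no replicate numbers, and for the same reason no fit of genotypes, no fit without each replicate and no other normalization of libraries was run. Of the 37 genes, 25 had an island also within 10 kb, at any distance, with tied genes all credited and from the island's centre. Over all genes these shares were 46.2%, 50.1%, 53.9% and 49.2%, in that order. The number was 23 within 1 kb (all genes 40.4%), 24 in gene bodies with 1 kb added (52.9%) and 20 with called islands (42.1%). With at least 20 peak-side reads it was 16 (all genes 29.2%), of which 1 was a Toll-like receptor and 15 were signalling genes. Start windows inside an island as a whole left 18 genes, for which no share over all genes was computed. Called islands alone left 12 in place of 20 (all genes with a window 38.3%). Called islands numbered 26 at an FDR under 0.01 (all islands 64.2%), and 21 at an FDR under 0.05 together with a fold over 2 (all islands 50.4%). The scaling of the control side decided the level of every fold. Scaled by the reads in all islands, which sets the pooled fold of the whole table to 1 by construction, 3 of the 48 islands were called (all islands 9.19%), 23 had a fold over 1 in place of 46 (all islands 55.7% in place of 98.3%), and the pooled fold was 0.926 (0.852 to 1.01) in place of 1.77. It was 1.71 at gene ends, 1.68 with at least 20 reads, 1.73 with 1 island a gene and 1.85 without Irak2. A CpG ratio of 0.5 or 0.7 as the limit gave 19 of 21 or 13 of 13 windows with an island. The shares over all protein-coding windows at these limits were not computed. The alternatives on tied genes, island centres, Irak2, folds over 1 and CpG limits were chosen after seeing the data. Read counts of 8 to 53 on the peak side limit all values for single islands.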

Other observations

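Some of the islands also lay over RNA genes that are not protein-coding. The one over the start of Irak1 overlapped the microRNA genes Mir718 and Mir5132, and the one shared by Tlr6 and Fam114a1 overlapped Mir574. Both islands of Ripk2 overlapped A530072M11Rik, and the island over the start of Traf3 overlapped 4930595D18Rik. The islands with most peak-side reads per length were the 800 bp island at the start of Traf2 and the 200 bp island within Irak4, each with 45.0 reads per kb, and the Irak4 island rests on 9 reads.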
